A study of Homo sapiens with 7 samples.

Results

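The HOX genes of clusters A to D were followed here through 7 RNA sequencing libraries of a multiple myeloma line. The members were taken by gene symbol from the raw count table, and 38 of its 60666 gene identifiers belong to them, with 10 in cluster A, 10 in cluster B, 9 in cluster C and 9 in cluster D. A further gene of cluster A was not analysed here. On GRCh38 the members of cluster A lie at chr7:27100354-27200106, those of cluster B at chr17:48528526-48729178, those of cluster C at chr12:53938765-54056030 and those of cluster D at chr2:176092891-176190907. A member's number follows its order along the cluster.

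All 7 libraries carry the label of RPMI 8226, a human cell line grown from multiple myeloma, a cancer of antibody-secreting plasma cells, and the design text asks what the ubiquitin-binding zinc finger of HDAC6 does in this disease. The 2 wild-type libraries (WT) carry no edit. The 2 KO libraries come from cells in which CRISPR-Cas9 knocked out HDAC6, a mostly cytoplasmic deacetylase, and the 3 libraries labelled RY come from cells in which it changed a pair of residues of that zinc finger so that it no longer binds ubiquitin. The labels do not say whether an edited line is 1 clone, nor whether replicates are separate cultures, so p-values here rest on a spread among libraries that may be technical, and an effect of an edit cannot be told apart from other differences between lines.

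Before the HOX genes, the libraries were set against their labels. HDAC6 stood at 57.2 and 77.3 CPM (reads scaled to the size of each library) in WT, 19.0 and 12.8 in KO, and 90.4, 110 and 96.4 in the libraries labelled RY, so KO lay 4.23-fold below WT (log2 fold change -2.08, SE 0.21, edgeR adjusted p = 0.000229). The change of residues in RY cannot be read from counts per gene. Plasma cell markers summed to between 17260 and 20500 CPM in WT, 15770 and 17740 in KO, and 360 and 396 in RY, where 13 of 14 markers tested were lower than in WT. The largest part in WT was the light chain gene IGLC2 (7504 and 9124 CPM). Most of the sum in RY came from XBP1 (308 to 353 CPM), which was at 436 and 586 CPM in WT. For this and the next lists, the share over all genes tested was 23.7% higher and 25.4% lower in RY than in WT (edgeR adjusted p under 0.05 and at least 2-fold). Some markers of these lists passed the filter on low counts through the group in which they are high, so the counts of calls are no independent support. ELANE, AZU1 and LYZ, for example, had 0, 7 and 3 reads in WT and 63, 286 and 97 in RY. The plasma cell receptor gene TNFRSF17 had 0 reads in all 3 RY libraries, and SDC1, the surface proteoglycan CD138, fell from 245 and 158 CPM in WT to between 0 and 0.05 CPM. Of 12 granulocyte and monocyte precursor markers tested, 9 were higher and 1 lower in RY than in WT, and the list summed to between 1307 and 1500 CPM in RY, 124 and 161 in WT and 57.7 and 59.8 in KO. Most of this sum came from MPO in RY (931 to 1056 CPM) and from CD33 in KO (57.9 and 51.95 CPM). ELANE, PRTN3, LYZ, CSF1R, CD14 and S100A9 stayed under 1 CPM in RY, and FCN1 and S100A8 had 0 reads in all 7 libraries. Of 7 lymphoid precursor and T lineage markers tested 4 were higher and 2 lower, with a sum of 259 to 271 CPM in RY, 15.9 to 29.8 in WT and 7.53 to 9.95 in KO. In RY and WT most of the sum came from CD4, which was 15.9-fold higher in RY than in WT. In KO the largest was CD8A (4.47 and 3.36 CPM, with CD4 at 1.60 and 1.53), which had 0 reads in RY. Of 7 mature B cell markers 4 were higher and 3 lower (30.2 to 33.1 CPM in RY, 124 to 138 in WT and 58.2 to 69.9 in KO), and of 4 erythroid and megakaryocyte markers 2 were higher and 2 lower. Of 6 epithelial markers 5 were lower and 0 higher (10.3 to 10.8 CPM in RY, 184 to 190 in WT and 151 to 153 in KO, with 1 higher at an unadjusted p under 0.05 and 0 by DESeq2). The part of these markers in the HOX results was not tested. The defining plasma cell markers therefore go against the label of the RY libraries, which are called the libraries labelled RY, or RY for short, and each direction drawn from them carries this limit. In bulk RNA, fewer cells of a type and less RNA per cell cannot be told apart.

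HOX genes encode transcription factors that bind DNA through a homeodomain, and their order along each cluster follows the order in which they are used along the body axis. In blood, cluster A genes such as HOXA9 and HOXA10 are active in stem and progenitor cells and are switched off as cells mature, and HOXA9 with its cofactor MEIS1 is a known driver of acute leukaemia. Trithorax proteins such as KMT2A hold the clusters active and Polycomb complexes hold them silent.

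The libraries used different clusters. Cluster A summed to 297, 301 and 290 CPM in the RY libraries, to 9.68 and 17.0 CPM in WT and to 0.0562 and 0.630 CPM in KO. Cluster B summed to 11.2 and 12.7 CPM in WT, 15.5 and 17.6 CPM in KO and 0.125, 0.289 and 0.151 CPM in RY. The ranges of RY and of the other libraries do not overlap for either cluster, and they stand in opposite order. Cluster C summed to between 28.2 and 31.5 CPM in RY, to 1.86 and 3.45 CPM in WT and to 0.843 and 0.750 CPM in KO. Cluster D was at 0 in both WT libraries and had at most 3 reads in any library.

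**Figure D1:**
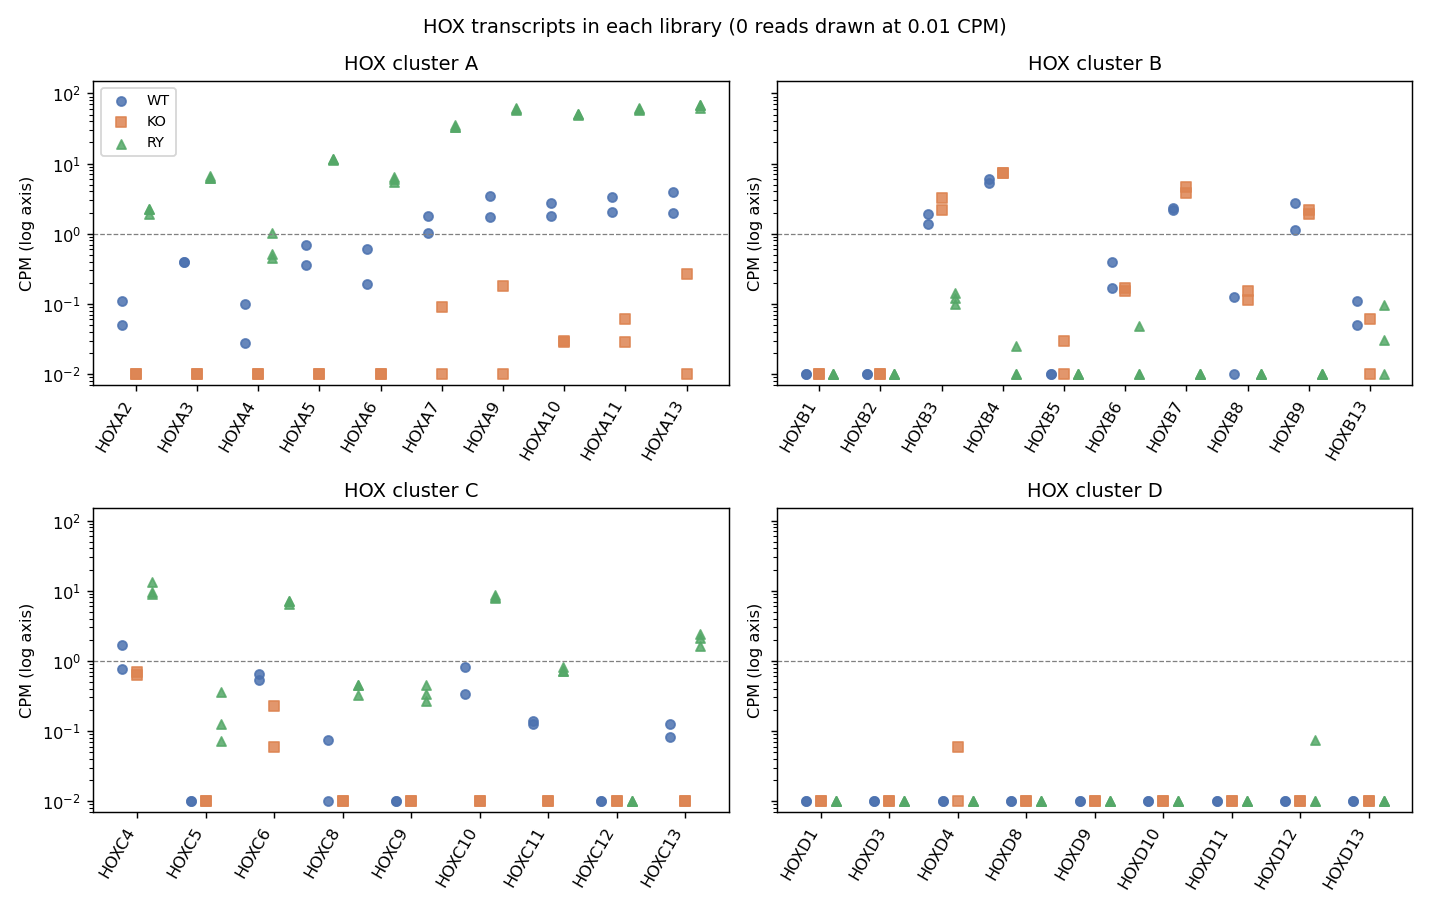
CPM of each HOX gene (log axis) in each library, by cluster and number along the x axis, with WT as circles, KO as squares, RY as triangles, 0 reads drawn at 0.01 CPM and a dashed line at 1 CPM. RY is highest throughout clusters A and C wherever a gene has more than 10 reads, WT and KO are highest for HOXB3, HOXB4, HOXB7 and HOXB9, and cluster D is nearly empty.

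As a share of all HOX CPM, cluster A made up 90.4% to 91.1% in the RY libraries, 42.6% and 51.4% in WT and 0.342% and 3.30% in KO. Cluster B made up 94.5% and 92.5% in KO, 49.2% and 38.2% in WT and at most 0.0868% in RY. The total over all members was 326 ± 6.89 CPM in RY (SD, n = 3), 27.9 ± 7.38 in WT (n = 2) and 17.8 ± 1.86 in KO (n = 2). A mean of at least 1 CPM was reached by 13 members in RY, 10 in WT and 4 in KO.

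**Figure D2:**
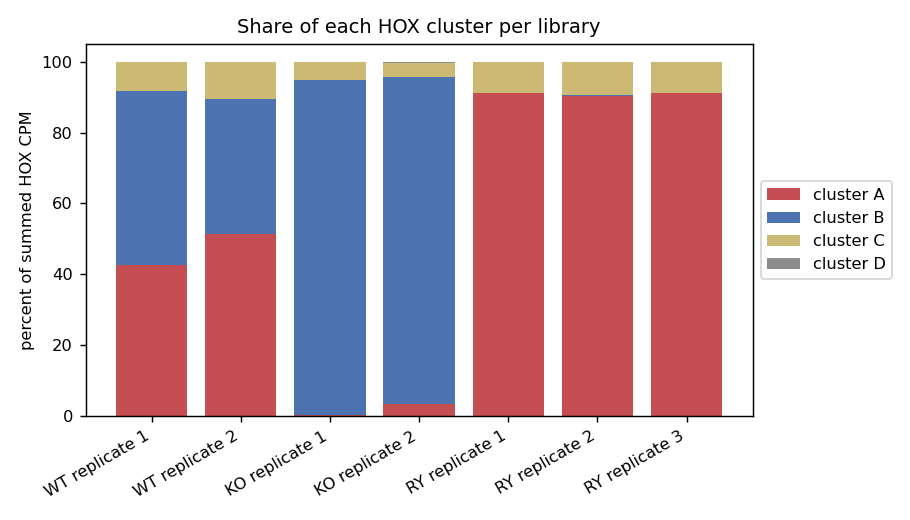
Percent of the summed HOX CPM that each cluster made up in each of the 7 libraries (stacked bars, 1 bar per library). RY bars are about all cluster A and C, KO bars nearly all cluster B, and in WT clusters A and B take similar parts.

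In the RY libraries every tested gene of cluster A was read, and per kilobase of exon the genes from HOXA7 to HOXA13 had the highest levels. HOXA9, a progenitor and leukaemia gene, was at 58.4, 59.5 and 61.2 CPM in RY, 1.75 and 3.40 in WT, and 0 and 0.180 in KO. HOXA10, its neighbour with a similar role in progenitors, was at 50.1, 51.0 and 49.8 CPM in RY, 1.80 and 2.78 in WT, and 0.0281 and 0.0300 in KO. The 3 groups do not overlap for either gene, with RY on top and KO at or near 0. HOXA11, known for limb, kidney and uterus development, was at 59.4, 61.2 and 57.7 CPM in RY, 2.05 and 3.30 in WT, and 0.0281 and 0.0600 in KO. HOXA13, which patterns the hand, foot and urogenital tract, was at 67.5, 68.0 and 62.2 CPM in RY, 1.97 and 3.95 in WT, and 0 and 0.270 in KO. RY again lies far above WT and KO, so the end of the cluster known from limb and urogenital development was read as well as its blood genes. HOXA7 was at 35.5, 33.3 and 32.7 CPM in RY, 1.03 and 1.76 in WT, and 0 and 0.0900 in KO.

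The low-numbered genes of cluster A, HOXA2 to HOXA6, had no reads in KO. HOXA5, a regulator of lung development that is also used in blood progenitors, was at 11.3, 11.7 and 11.7 CPM in RY and at 0.361 and 0.695 in WT. HOXA3 and HOXA6 lay between 5.50 and 6.59 CPM in RY and between 0.194 and 0.596 in WT. HOXA2, which specifies the second branchial arch, was at 1.93 to 2.27 CPM in RY and HOXA4 at 0.450 to 1.01 CPM, both at most 0.111 CPM in WT. Per kilobase of exon, the scale on which genes can be compared, the level in RY was highest for HOXA11 (25.8 ± 0.769 CPM per kb, SD, n = 3) and then HOXA9 (19.7 ± 0.472). HOXA7, HOXA10 and HOXA13 came next at 14.0 ± 0.618, 13.6 ± 0.171 and 12.96 ± 0.631, where the ranges of neighbours in this order overlap for HOXA7 and HOXA10 but not for HOXA10 and HOXA13. HOXA5 (6.79 ± 0.149), HOXA6 (4.70 ± 0.392), HOXA3 (1.49 ± 0.0405), HOXA2 (0.870 ± 0.0757) and HOXA4 (0.377 ± 0.176) followed without overlap. The order along the chromosome was therefore kept only roughly, with HOXA11 above HOXA13 and HOXA4 lowest. Genes in this order, HOXA4 among them, share exon bases with other gene models, as given below, which leaves their places uncertain.

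**Figure D3:**
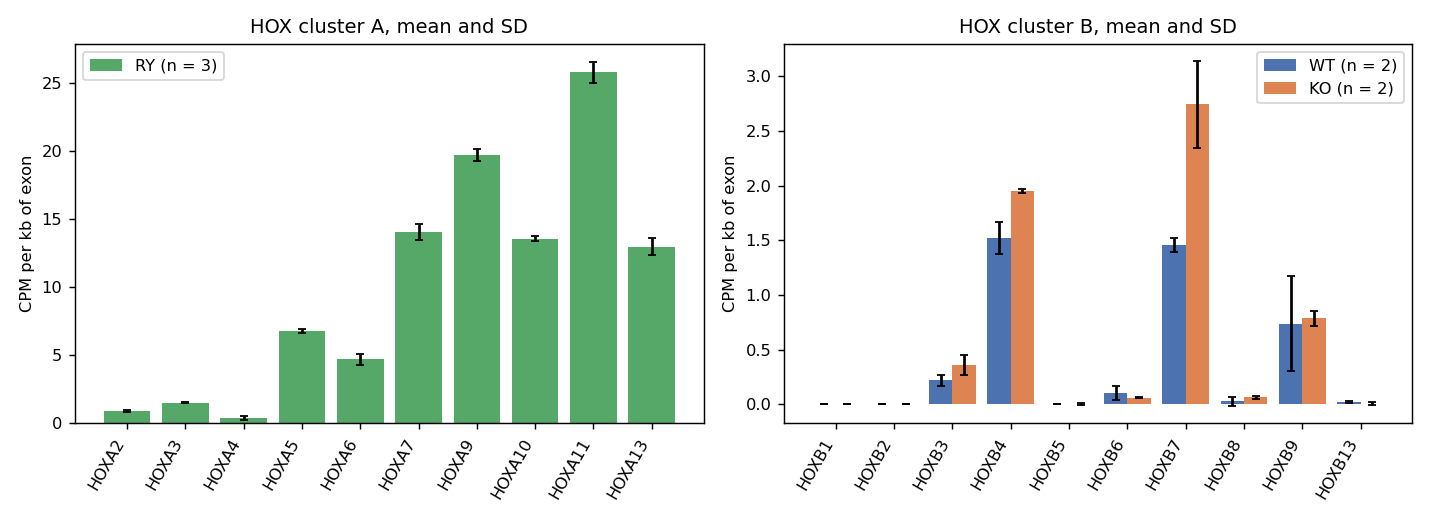
CPM per kilobase of exon for cluster A in RY (left, bars are the mean of 3 libraries) and cluster B in WT and KO (right, means of 2 libraries each), with error bars of 1 SD and separate y axes from 0. In cluster A the bars run from 0.377 for HOXA4 to 25.8 for HOXA11, and in cluster B HOXB4 and HOXB7 stand above HOXB9 and HOXB3 while HOXB1, HOXB2 and HOXB5 are at or near 0.

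Promoter sequence is given for a blood gene and an end gene of cluster A, both high in RY, and for a window that members of unequal level share. RefSeq promoters (GRCh38.p14, 250 bases before to 50 after the start) were found for 20 of the 38 members. HOXA9 (minus strand, chr7:27165488-27165787) and HOXA13 (minus strand, chr7:27200042-27200341) are from cluster A. The window of HOXC4 (plus strand, chr12:54016638-54016937) is also that of HOXC5. Capitals mark matches, on either strand, to the MEIS motif TGACAG, the PBX-HOX motif TGATNNAT or the TATA motif TATAAA, which do not overlap here.
HOXA9: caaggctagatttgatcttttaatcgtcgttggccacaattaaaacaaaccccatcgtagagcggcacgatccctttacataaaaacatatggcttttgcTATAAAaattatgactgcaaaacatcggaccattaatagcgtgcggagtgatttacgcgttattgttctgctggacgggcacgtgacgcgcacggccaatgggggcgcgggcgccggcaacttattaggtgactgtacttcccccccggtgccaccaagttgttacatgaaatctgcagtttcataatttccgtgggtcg
HOXA13: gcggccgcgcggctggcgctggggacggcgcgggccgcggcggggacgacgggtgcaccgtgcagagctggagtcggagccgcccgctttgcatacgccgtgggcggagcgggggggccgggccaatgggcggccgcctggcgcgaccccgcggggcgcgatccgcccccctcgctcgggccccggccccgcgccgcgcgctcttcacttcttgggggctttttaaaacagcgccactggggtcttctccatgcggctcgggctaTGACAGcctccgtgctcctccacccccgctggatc
HOXC4 and HOXC5: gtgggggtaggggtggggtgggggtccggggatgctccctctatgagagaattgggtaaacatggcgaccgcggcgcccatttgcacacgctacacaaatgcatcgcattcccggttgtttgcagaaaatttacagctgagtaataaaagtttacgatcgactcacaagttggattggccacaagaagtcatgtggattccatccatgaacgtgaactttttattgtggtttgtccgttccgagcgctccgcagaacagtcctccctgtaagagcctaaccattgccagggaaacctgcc
HOXA9 holds TATAAA from position -150 relative to the start, HOXA13 holds TGACAG from position 15, and the HOXC4 window holds none of the 3. TGACAG was in 4 of the 20 member promoters and in 15.8% of 35116 RefSeq promoters of 300 bases, TGATNNAT in 3 and 7.4%, and TATAAA in 4 and 11.5%. A match is a description of letters and no evidence of binding. The ratio of observed to expected CpG was above 0.6 in 17 of the 20, among them 9 of 9 in cluster A and 6 of 8 in cluster D, against 48.6% of all these promoters. Cluster A, read in RY, and cluster D, with 5 reads in all, thus both had promoters that were mostly rich in CpG.

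Cluster B was read in WT and KO, from 4 genes. HOXB4, known for expanding blood stem cells, was at 6.10 and 5.32 CPM in WT, 7.39 and 7.29 in KO, and 0.0250, 0 and 0 in RY. HOXB7 was at 2.30 and 2.16 CPM in WT, 3.77 and 4.62 in KO, and 0 in all RY libraries. HOXB9 was at 1.11 and 2.71 CPM in WT, 1.91 and 2.16 in KO, and 0 in all RY libraries. For these genes the WT and KO libraries lie near each other, and for HOXB9 they overlap, while RY held 1 read in all for the 3 of them. HOXB3 was at 1.39 and 1.91 CPM in WT, 2.19 and 3.18 in KO, and 0.100, 0.144 and 0.121 in RY.

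Per kilobase, HOXB4 (1.52 ± 0.148 CPM per kb in WT and 1.95 ± 0.0193 in KO, n = 2 each) and HOXB7 (1.46 ± 0.0657 and 2.74 ± 0.395) led the cluster. HOXB7 lay below HOXB4 by less than their spread in WT and above it in KO. Other genes of the cluster were nearly unread. HOXB5, between HOXB4 and HOXB6, had 1 read in 7 libraries, HOXB1 and HOXB2 had 0, and HOXB8 had 5 in WT, 9 in KO and 0 in RY. HOXB6 had 22 reads in WT, 11 in KO and 2 in RY. HOXB13, which lies apart at the far end and is known from prostate, had 6, 2 and 5 reads.

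Cluster C was highest in RY and lowest in KO, like cluster A. HOXC10 was at 8.55, 7.87 and 8.22 CPM in RY, 0.333 and 0.820 in WT, and 0 in both KO libraries. HOXC6 was at 7.17, 7.10 and 6.56 CPM in RY, 0.527 and 0.646 in WT, and 0.225 and 0.0600 in KO. HOXC4, used in lymphoid cells, was at 9.10, 13.4 and 9.46 CPM in RY, 0.777 and 1.66 in WT, and 0.618 and 0.690 in KO. RY lies above the other groups for all 3, and for HOXC4 alone both KO libraries kept over 0.5 CPM. HOXC13, a hair and nail gene, was at 2.40, 1.64 and 2.09 CPM in RY, 0.0832 and 0.124 in WT and 0 in KO. HOXC8, HOXC9, HOXC11 and HOXC5 stayed under 1 CPM in all groups, with 47, 40, 87 and 20 reads over the RY libraries, and HOXC12 had none. Per kilobase in RY, HOXC4 (3.91 ± 0.882) and HOXC10 (3.52 ± 0.145) overlapped and led, with HOXC6 next (1.96 ± 0.0947).

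In cluster D, 7 of 9 genes had 0 reads in all 7 libraries. HOXD4 had 2 reads, both in KO replicate 2, and HOXD12 had 3, all in RY replicate 1. A count of 0 over a group allows up to 0.0393 CPM in WT, 0.0435 in KO and 0.0262 in RY. These limits, at 3 reads, cover counting error only. In all, 10 members had no reads anywhere, the other 3 being HOXB1, HOXB2 and HOXC12, and 3 more had 1 to 10 reads in all.

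How RY differed from WT was tested next, with edgeR's quasi-likelihood test over 18281 genes, a call being an adjusted p under 0.05 and at least 2-fold. The filter on low counts kept 21 of the 38 members, 10 of cluster A, 4 of B, 7 of C and 0 of D. Most of these passed it through the group in which they are high, so the count of calls among them is no independent support. Of the 38 members, 17 were higher in RY than in WT, all in clusters A and C, and 4 were lower, all in cluster B. Of all genes tested, 23.7% were higher, 25.4% lower and 49.1% called in either direction. HOXA9 was 22.7-fold higher (log2 4.52, SE 0.32, adjusted p = 2.19e-06), HOXA11 21.96-fold (log2 4.46, SE 0.20, adjusted p = 1.39e-07) and HOXA13 21.9-fold (log2 4.47, SE 0.35, adjusted p = 4.52e-06). From HOXA7 to HOXA13 the folds lay close together, between 21.7 and 23.97, while the others ran from 10.3-fold for HOXA4 (counting interval 4.21 to 32.5, 5 WT reads) to 27.1-fold for HOXA2 (12.3 to 74.5, 6 WT reads). Without WT replicate 1 these became 6.76-fold for HOXA4 and 42.8-fold for HOXA2. Without WT replicate 2 HOXA4 was at 24.2-fold, HOXA6 at 31.1-fold in place of 14.9 and HOXA13 at 33.6-fold. In cluster C the folds with WT reads ran from 5.79 for HOXC11 to 19.4 for HOXC13, with HOXC4 at 8.65 (adjusted p = 3.58e-05) and at 13.9 without WT replicate 2. HOXC10 was 13.9-fold higher, and 24.6-fold without WT replicate 2, and HOXC9, without reads in WT, was at least 8.87-fold higher.

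In the other direction, HOXB4 was 652-fold lower in RY than in WT, with a counting interval of 116 to 25810 because RY held 1 read (adjusted p = 2.64e-07). That read was in RY replicate 1, without which the bound is at least 141-fold, and without RY replicate 2 the fold was 416. HOXB7 was at least 85.1-fold lower (adjusted p = 9.45e-06), HOXB9 at least 74.6-fold lower (adjusted p = 0.000112) and HOXB3 13.6-fold lower (log2 -3.72, SE 0.38, adjusted p = 2.33e-05). Every HOX gene tested was called in this comparison. The authors' deposited table of RY against WT lists 23 members, 17 higher and 6 lower. It holds all 21 called here in the same direction, and besides them HOXB6 (log2 fold change -3.80) and HOXB8 (-4.39), which the filter on low counts removed here.

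RY was also set against KO, a comparison that shares the RY libraries with the one before. Of the 38 members 17 were higher in RY and 4 lower, against 24.0% and 26.0% of all genes tested. HOXA10 was 1734-fold higher in RY (counting interval 480 to 14320, adjusted p = 1.39e-08), HOXA11 1369-fold (468 to 6640, adjusted p = 2.04e-08), HOXA9 685-fold (314 to 1867) and HOXA13 507-fold (267 to 1108). All KO reads of HOXA9 and HOXA13 were in KO replicate 2. Without KO replicate 1 the folds were 331 for HOXA9 and 245 for HOXA13, and without KO replicate 2 at least 707 and at least 785, while HOXA11 went to 2120. Where KO had no reads the folds are lower bounds, at least 266-fold for HOXA5, at least 189-fold for HOXC10 and at least 147-fold for HOXA3. HOXC4 differed least among those higher with reads in both groups, at 16.5-fold (adjusted p = 1.13e-05). HOXB4 was 842-fold lower (150 to 33310), HOXB7 at least 160-fold, HOXB9 at least 77.6-fold and HOXB3 21.9-fold.

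KO was then compared with WT, to ask what differs with the knockout. Of the 38 members, 21 of them tested, 12 were lower in KO and 0 were higher, against 7.64% and 3.3% of all genes tested and 10.9% called in either direction. Some members, HOXA6, HOXC11 and HOXC13 among those called, passed the filter on low counts only with RY in the fit. This count is therefore no independent support, and fewer members were called with only the 2 groups compared. By edgeR 1 member had a positive change at an unadjusted p under 0.05, and DESeq2 called 0 higher and 12 lower. The 12 were 8 genes of cluster A and 4 of cluster C. HOXA10 was 79.9-fold lower in KO (counting interval 21.8 to 665, adjusted p = 3.83e-05), HOXA11 62.3-fold (21.0 to 305, adjusted p = 5.16e-05), HOXA7 32.5-fold (10.8 to 160), HOXA9 30.1-fold (13.6 to 83.0) and HOXA13 23.1-fold (11.95 to 51.1). HOXC10 was at least 13.6-fold, HOXA5 at least 12.3-fold, HOXA6 at least 9.33-fold and HOXA3 at least 9.03-fold lower. The authors' deposited table of KO against WT lists 11 members, all lower and all called here, and leaves out HOXC13.

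HOXC6, HOXC11 and HOXC13 were the unsteady calls. HOXC6 was 4.07-fold lower (log2 -1.999, SE 0.48, adjusted p = 0.0209), with a log2 fold change of -1.35 and an adjusted p of 0.111 without KO replicate 2, 9.83-fold lower without KO replicate 1, and an adjusted p of 0.0508 without RY replicate 2 (edgeR). HOXC11 and HOXC13, with 10 and 8 reads in WT, had adjusted p-values of 0.0208 and 0.0442 by edgeR. These became 0.108 and 0.162 without KO replicate 1 and 0.1 and 0.15 without KO replicate 2, and that of HOXC13 was 0.0998 without WT replicate 2. Without RY replicate 1, 2 or 3 it was 0.0639, 0.0569 or 0.0759. For HOXA7, HOXA9 and HOXA13, KO replicate 2 held all 3, 6 and 9 KO reads. Without KO replicate 1 they were 15.7-fold, 14.6-fold and 11.2-fold lower in KO, and each stayed called. Without KO replicate 2 only bounds remain, of at least 16.8-fold for HOXA7, at least 31.1-fold for HOXA9 and at least 35.7-fold for HOXA13. HOXA11 went to 96.5-fold without KO replicate 2, and HOXA13 to 15.1-fold without WT replicate 2.

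The cluster B genes did not pass the test between KO and WT. HOXB7 was 1.88-fold higher in KO (log2 0.91, SE 0.28, adjusted p = 0.0798), HOXB3 1.60-fold higher (adjusted p = 0.196), HOXB4 1.29-fold higher (adjusted p = 0.392) and HOXB9 1.04-fold higher (adjusted p = 0.944), all by edgeR. HOXB9 was 1.83-fold higher without WT replicate 2, but lower in KO by 1.33-fold without WT replicate 1 and by 1.02-fold without KO replicate 2. Both KO libraries lay above both WT libraries for HOXB3, HOXB4 and HOXB7. The counting intervals of these ratios, 1.55 to 2.28 for HOXB7 and 0.820 to 1.32 for HOXB9, do not cover the spread between libraries. HOXC4 was 1.91-fold lower in KO (log2 -0.91, edgeR adjusted p = 0.199). Without WT replicate 1 its log2 fold change was -1.35 and its adjusted p 0.0175, and without WT replicate 2 it was 1.19-fold lower.

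The genes from HOXA7 to HOXA13 stood in WT at a small and even fraction of the RY level. In WT replicate 1, these 5 genes were at 2.93% to 3.59% of the RY mean, and in WT replicate 2 at 5.21% to 5.99%. WT replicate 2 was the higher library for each of them. The other members with at least 1 CPM in RY were less even, from 3.11% for HOXA5 to 7.59% for HOXC6 in WT replicate 1 and from 2.32% for HOXA2 to 15.6% for HOXC4 in WT replicate 2, and HOXA2 was lower in WT replicate 2 than in WT replicate 1. In KO replicate 1 the genes from HOXA7 to HOXA13 were at 0 to 0.0559% and in KO replicate 2 at 0.0597% to 0.410%. The 205 other genes that reached 20 CPM in RY and had a KO mean below 1% of that level had a median of 4.07% in WT replicate 1 (10th to 90th percentile 2.17% to 8.002%) and 7.12% in WT replicate 2 (4.84% to 11.7%). The values of HOXA7 to HOXA13 lie within those ranges. MPO, the peroxidase of granulocyte precursors, was at 41.5 and 76.3 CPM in WT, 0.0843 and 3.51 in KO and 931 to 1056 in RY. MPO meets the rule that chose the 205 genes, so its low level in KO relative to RY was fixed by that choice. Not every marker of its list followed, since CD33 was at 70.5 and 65.5 CPM in WT and 57.9 and 51.95 in KO. Of the 12 granulocyte and monocyte markers tested 5 were lower and 0 higher in KO than in WT, against 7.64% and 3.3% of all genes. In KO, HOXC4 was at 5.80% and 6.47% of the RY level and HOXC6 at 3.24% and 0.864%. The 205 genes were chosen by their low KO level, so they give no measure for these KO values. Whether RNA of the RY kind is part of the WT libraries was not tested.

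**Figure D4:**
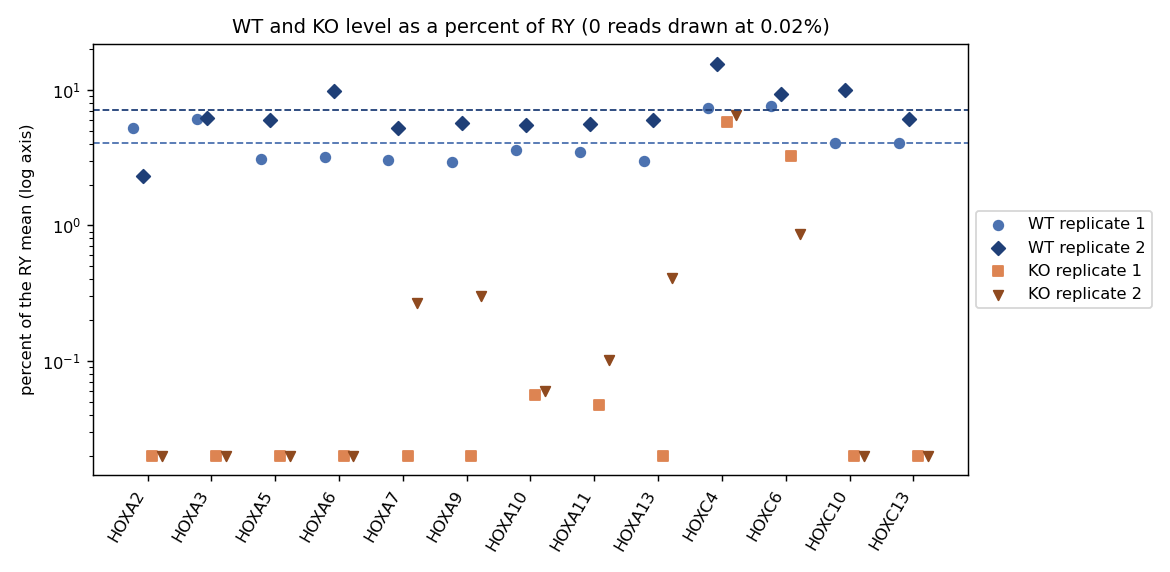
Level of each member with at least 1 CPM in RY as a percent of the RY mean (log axis) in the 2 WT and 2 KO libraries, with 0 reads drawn at 0.02%, and dashed lines at the medians of the 205 other genes in WT replicate 1 (4.07%) and WT replicate 2 (7.12%). From HOXA7 to HOXA13 the WT points form flat rows near 3% and 6%, KO points lie under 0.5%, and HOXC4 and HOXC6 are the only members with KO points above that.

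The long non-coding RNAs that could be tested lie in clusters A and C, and like the genes there they were higher in RY. Those of cluster B had too few reads for a test. Of 18 long non-coding RNAs of the clusters in the count table, 8 were tested. Of these, 8 were higher and 0 lower in RY than in WT, against 23.7% and 25.4% of all genes. Most of the 8 passed the filter on low counts through RY, where they are high. Neither this count nor their median is therefore independent support. Their median log2 fold change was 5.02, or 4.25 with genes without WT reads at their bound, against -0.026 over all genes. By edgeR 0 were lower at an unadjusted p under 0.05, and DESeq2 called 8 higher and 0 lower. HOXA11-AS, antisense to HOXA11, was at 11.9, 17.6 and 13.4 CPM in RY, 0.388 and 0.695 in WT and under 0.031 in KO (26.2-fold over WT, adjusted p = 1.4e-06). HOTTIP, transcribed beyond HOXA13 and known to help keep the end of the cluster active, was at 5.90 to 8.93 CPM in RY and 0.333 and 0.720 in WT (14.0-fold, adjusted p = 1.97e-05). HOTAIRM1, from the low-numbered end of cluster A and known from myeloid maturation, was 26.8-fold higher (adjusted p = 3.28e-06). HOTAIR, which lies in cluster C and is known for acting on cluster D, was at 1.82 to 2.94 CPM in RY and had 4 reads in WT and 0 in KO. The cluster B transcripts HOXB-AS1 and HOXB-AS3 had at most 3 reads in any library. Between KO and WT 4 of the 8 were lower, HOXA11-AS, HOTAIRM1, HOTTIP and HOXA10-AS, and 0 higher, against 7.64% and 3.3% of all genes. At an unadjusted p under 0.05 edgeR had 0 higher, and DESeq2 called 0 higher.

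Members and antisense transcripts overlap, and the strand setting of the counting was not given in the sources used here. In GENCODE 29, 62.5% of the exon bases of HOXA7 are shared with HOXA-AS3, 39.3% of HOXA6 with the same gene and 31.1% of HOXA11 with HOXA11-AS. HOXA-AS3 itself had 51 reads in RY against 3889 for HOXA7. HOXA4 shares 31.0% of its exon bases with the same-strand model AC004080.6. HOXC5 shares 59.9% of its exon bases with same-strand models, and HOXC4 17.8% with HOXC5 and HOXC6. Reads of these genes are uncertain to that extent.

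Of 25 flanking genes 22 were tested, and 6 were higher and 3 lower in RY than in WT, with a median log2 fold change of 0.093 (all genes -0.026, with 23.7% called higher and 25.4% lower). Beside cluster B, SKAP1, an adaptor of T cell receptor signalling 98.3 kb from HOXB1, fell from 9.85 and 14.7 CPM in WT to at most 0.0907 CPM in RY (203-fold, adjusted p = 2.46e-07). On the other side TTLL6, 33.1 kb from HOXB13, had 0 reads in WT and KO and 0.425 to 0.602 CPM in RY. Beside cluster A, SKAP2, 105 kb from HOXA2 and related to SKAP1, rose 3.40-fold (adjusted p = 2.12e-05), and SNX10, an endosomal sorting gene 726 kb away, rose 15.8-fold (adjusted p = 4.38e-07). EVX1, a homeobox gene 42.6 kb beyond HOXA13, was at 0.475 to 0.602 CPM in RY and had 3 reads in WT. Beside cluster C, SMUG1, a DNA repair gene, fell 2.71-fold (adjusted p = 4.48e-06). The flanks of cluster D, LNPK and MTX2, were read at 27.1 to 40.5 CPM in all 7 libraries next to a cluster with almost no reads, and EVX2, between LNPK and the cluster, had none. Between KO and WT 1 of 22 was lower, SNX10 (61.2-fold, adjusted p = 3.03e-05), and 0 were higher (edgeR, 2 higher at an unadjusted p under 0.05, and 0 by DESeq2). The shares over all genes there were 7.64% lower and 3.3% higher.

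HOX proteins bind DNA together with the TALE homeodomain proteins PBX, MEIS and PKNOX. Of 8 cofactor genes 7 were tested, and 4 were higher and 0 lower in RY than in WT, with a median log2 fold change of 1.36, against 23.7% higher and 25.4% lower over all genes (edgeR, 0 lower at an unadjusted p under 0.05, and 0 by DESeq2). MEIS1, the partner of HOXA9 in leukaemia, was at 97.0, 106 and 93.8 CPM in RY, 12.01 and 17.0 in WT, and 10.2 and 7.68 in KO (6.77-fold over WT, adjusted p = 1.4e-06). MEIS3 was at 13.5 to 18.2 CPM in RY, 0.694 and 2.19 in WT and at most 0.140 in KO, and it rose 10.9-fold in RY and fell 14.6-fold in KO (adjusted p = 0.00612). The groups do not overlap for MEIS1 or MEIS3, with RY highest and KO lowest. PBX3, also tied to HOXA9 in leukaemia, rose 2.57-fold in RY to between 20.6 and 22.1 CPM (adjusted p = 4.12e-05), and PBX4, a further PBX family gene, rose 4.95-fold from 0.111 and 0.298 CPM to between 0.786 and 1.20 (adjusted p = 0.00215). PBX2 and MEIS2 were not called in any comparison, though all RY libraries lay above the WT and KO libraries for both. For PBX3 and PKNOX1 too the groups did not overlap, with RY highest and KO lowest.

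**Figure D5:**
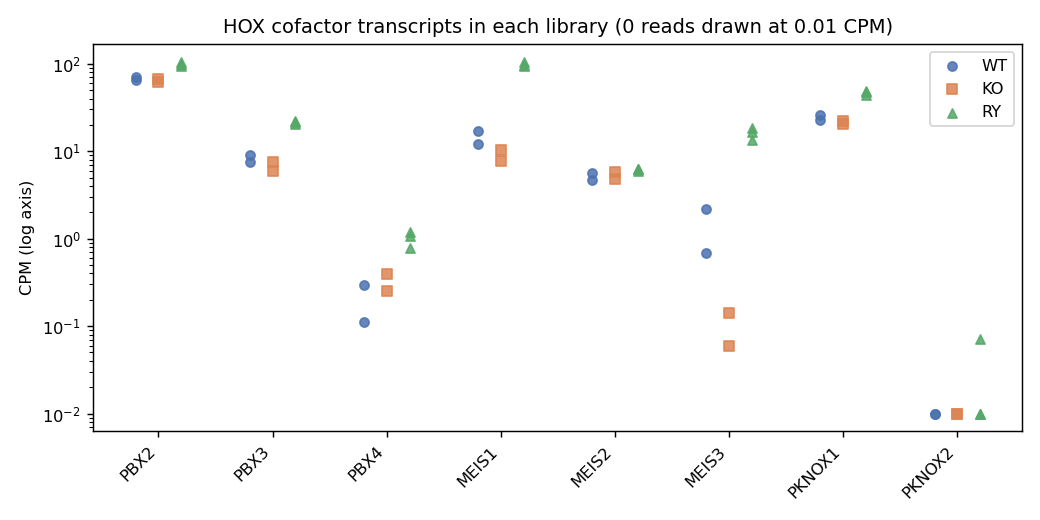
CPM of 8 TALE cofactor genes (log axis) in each library, with WT as circles, KO as squares, RY as triangles and 0 reads drawn at 0.01 CPM. RY lies above every WT and KO library for each gene except PKNOX2, with the smallest gap for MEIS2. KO lies below WT for MEIS1, MEIS3, PBX3 and PKNOX1, by little for PBX3 and PKNOX1.

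The regulators that hold the clusters on or off were examined against the 49.1% of all genes called in this comparison. Of 23 trithorax and other activating regulators 3 were higher and 3 lower in RY than in WT, with a median log2 fold change of 0.424, and 14 were higher and 4 lower at an unadjusted p under 0.05 without a fold minimum. PSIP1, which tethers KMT2A to chromatin, rose 4.83-fold (68.7 and 78.7 CPM in WT and 330 to 377 in RY, adjusted p = 1.96e-07), and the X-linked H3K27 demethylase gene KDM6A rose 5.81-fold (adjusted p = 3.58e-07). ASH1L, a histone methyltransferase, fell 2.28-fold and MLLT10, a DOT1L cofactor, 2.10-fold. KMT2A itself was at 126 to 165 CPM in all 7 libraries. Of 29 Polycomb genes 28 were tested, 4 rose and 3 fell, with a median log2 fold change of 0.177, and 11 were higher and 9 lower at an unadjusted p under 0.05. PHC1, a PRC1 subunit, rose 11.4-fold from 1.86 and 2.78 CPM to between 25.1 and 27.9 (adjusted p = 4.8e-07). MTF2, a PRC2 accessory subunit, rose 2.74-fold and BMI1, a core PRC1 subunit, 3.37-fold, while PHC3 fell 2.37-fold. Between KO and WT, where 10.9% of all genes were called, 0 Polycomb genes were called by edgeR, with 2 higher and 4 lower at an unadjusted p under 0.05, and 0 by DESeq2. KDM6A was the only activating regulator called there, 2.89-fold lower (adjusted p = 0.000203).

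Of 11 upstream factors, of which 7 were tested, 1 was higher and 2 lower in RY than in WT, against 23.7% and 25.4% of all genes. Their median log2 fold change was 0.007. The caudal genes CDX1 and CDX4, which activate HOX genes in the embryo, had 0 reads in all 7 libraries and CDX2 had 7, all in RY. The retinoic acid receptor genes RARG and RARA fell 6.46-fold and 2.47-fold (adjusted p = 1.41e-07 and 4.03e-06). EGR2, a hindbrain regulator of HOX genes, had 7 reads in WT, 0 in KO and 48 in RY, and was 4.56-fold higher in RY than in WT by edgeR (adjusted p = 0.0317), while DESeq2 called 0 upstream factors higher.

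Genes linked in blood to HOXA9 and MEIS1 were mostly higher in RY. Of 18 such genes 17 were tested, and 13 were higher and 0 lower than in WT, with a median log2 fold change of 1.88, against 23.7% higher, 25.4% lower and a median of -0.026 over all genes (edgeR, 0 lower at an unadjusted p under 0.05, and 0 by DESeq2). Some passed the filter on low counts through RY, such as ERG, GATA2 and CD34, with 2, 2 and 6 reads in WT and 102, 125 and 518 in RY. The list was also chosen with earlier results of these data known, so its count and median are no independent support. LMO2, a stem cell adaptor of transcription factors, rose 15.8-fold to between 83.1 and 86.1 CPM (adjusted p = 1.89e-07). SOX4 rose 17.9-fold (adjusted p = 4.6e-07), CEBPA, a myeloid master regulator, 13.2-fold (adjusted p = 1.66e-06), and the cyclin-dependent kinase gene CDK6 2.79-fold (adjusted p = 2.08e-06). The list shares myeloid genes with the marker lists above, which rose in the same libraries, and their part in its count was not tested. Between KO and WT 5 of the 17 were lower, LMO2, CEBPA, SOX4, KIT and MECOM, and 0 were higher, against 7.64% and 3.3% of all genes. By edgeR 0 were higher at an unadjusted p under 0.05, and DESeq2 called 0 higher. LMO2 had 5 reads in KO against 409 in WT.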

How the data were processed

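The deposited raw counts, whole reads per Ensembl gene without normalization, were the start. Per the submitters' processing notes, GRCh38, HTSeq 0.9.1, STAR 2.7.4, FastQC and edgeR 1.34.1 were used, with no role or order given. The annotation release, read filters and strand setting are not given in the sources used here. The authors also deposited 2 comparison tables, which give log2 fold changes with F scores and p-values, raw and adjusted, for genes past 2-fold and an adjusted p of 0.05. The members and lists were chosen with earlier results of these data known.

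Symbols came from the gene name table (60437 of 60666 identifiers, 38 of 38 members) and positions and exon unions from GENCODE 29 on GRCh38. Library totals ran from 31368968 to 42813888 reads. Replicates differed by more than sampling noise, with a chi-square per gene of 7.92 to 78.6. Tests used edgeR 4.0.16 in R 4.3.3, the quasi-likelihood test in 1 fit of all 7 libraries with a term per group, TMM scaling, filterByExpr with a minimum count of 10, and Benjamini-Hochberg adjustment over 18281 genes. The spread is thus shared between groups, and it was smaller within RY. CPM uses TMM-scaled library sizes. SE is the log2 fold change over the root of F. Folds are ratios of summed reads over scaled sizes. Against a group with 0 reads they use a floor of 3 reads over that group, so that a bound falls when one of its libraries is left out, and with few reads a 95% exact interval, both for counting error only. Genes to name were those at 1 CPM or more in a group or called, and up to 4 called genes of each list by adjusted p. Other list genes, among them TTLL6, EVX1, EVX2, LNPK, MTX2, KMT2A, PBX2, MEIS2, the CDX genes and the antisense RNAs of cluster B, were named after their values were seen. KRT8, an epithelial keratin, was taken out of the upstream factors after its values were seen, since it is none. Some list genes are not reported here. DESeq2 1.42.0 was an alternative.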

Additional observations from a re-analysis of the deposited data

How the results depend on the processing

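All 21 members called in RY against WT, and all 21 in RY against KO, kept their call and direction under every alternative run: RLE size factors, library size only, no filter on low counts, DESeq2, only the 2 groups compared, a replicate block and each library left out. Without the filter, 18 were higher and 5 lower in RY against WT. Library size only moved the median of all genes from -0.026 to 0.165 (log2) in RY against WT and from -0.031 to 0.114 in RY against KO. In KO against WT, where 12 members were lower, the count was 8 with only the 2 groups compared, where HOXA6, HOXC11 and HOXC13 fell under the filter on low counts and HOXC6 missed the threshold, 9 with a replicate block and 9 to 13 with single libraries left out, and 0 were higher throughout. Over single genes there, 268 of the 287 alternatives that tested the gene left the call as it was, 16 lost it and 3 gained it, and none reversed. Among genes still tested, the lost calls were those of HOXC6, HOXC11 and HOXC13, and the gained ones those of HOXA2 and HOXC4. The number of members at 1 CPM in WT went from 10 to 6 with a minimum of 2 CPM. Replicate numbers pair no samples by the labels. Same-numbered WT and KO libraries deviated in opposite directions (correlation -0.3), so a block with crossed KO numbers was added after seeing the data and called 10 lower. Depth limits cluster D and the smaller members, since 3 reads in a group equal 0.0262 to 0.0435 CPM.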
